A study of Mus musculus with 16 samples.

Results

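The imprinted growth genes followed here were *Igf2*, *H19*, *Igf2r*, *Mest*, *Peg3*, *Dlk1*, *Meg3*, *Cdkn1c*, *Plagl1* and *Grb10*. A gene was read from the probe set that the platform annotation pairs with its symbol and no other. This gave 9 of the 10 genes, out of 17215 gene symbols tested, and each of the 9 had 1 such probe set. *H19* had none, so no value is given for it. All 9 passed the minimum signal of 5 on the log2 scale.

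Lower molar germs were taken from embryos at E14.5, and their RNA was hybridised to Affymetrix Mouse Gene arrays, as 8 WT pools and 8 *Rsk2-/Y* pools. All mice were on the C57Bl6 background, and the labels give 4 tooth germs and 150 ng of RNA per pool. In *Rsk2-/Y* males the X-linked kinase gene *Rps6ka3* (Rsk2) lacks exon 2 in every cell, and the WT embryos were male littermates. By their names the samples form an ABH series and an AZN series with 4 pools of each genotype, and no source used here explains these letters. Nothing says which pools shared a litter, so p-values measure the spread between these pools, which may in part be technical. In pooled tissue, fewer cells of a type and less RNA per cell cannot be told apart.

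Imprinted genes are expressed mainly from the allele of a single parent, and the choice is set by DNA methylation laid down in the germ line. Many of them act on fetal growth. *Igf2*, *Mest*, *Peg3*, *Dlk1* and *Plagl1* are expressed from the paternal allele in most embryonic tissues, whereas *H19*, *Igf2r*, *Meg3*, *Cdkn1c* and *Grb10* are expressed mainly from the maternal allele. Several share a locus: *Igf2* lies beside *H19*, and *Dlk1* lies beside *Meg3*, whose transcript opens a long cluster of noncoding RNAs on the maternal chromosome. *Plagl1* encodes a zinc finger factor that is known to act on other imprinted genes, *Igf2* and *Cdkn1c* among them.

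The dental nature of the pools was visible in their markers. The epithelial keratin *Krt14* averaged 11.58 (log2) in WT pools and 11.41 in *Rsk2-/Y* pools, and the mesenchymal factor *Pax9* averaged 10.90 and 10.81. Other tissue was present as well: the mean of 22 skeletal muscle genes ran from 7.36 to 8.80 in WT and from 7.28 to 9.74 in *Rsk2-/Y* pools, and was highest in each series in the *Rsk2-/Y* pools ABH_14A (9.30) and AZN_MolairesMutant3 (9.74). The mean of 17 dental epithelium genes ran from 9.75 to 10.49 in WT and from 9.62 to 10.17 in *Rsk2-/Y* pools. All 17 had a genotype difference below 0, 10 with an unadjusted p under 0.05 in limma and 0 called, against 4.05% and 0% of all probe sets. The probe set of *Rps6ka3* had 9.99 ± 0.23 in WT and 10.09 ± 0.28 in *Rsk2-/Y* pools (SD, n = 8 each), and since its probes are not placed on exons here, it does not check the loss of exon 2.

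Between genotypes no imprinted growth gene was called. With limma, 0 of the 9 genes passed an adjusted p of 0.1 together with a fold change of 1.2, as did 0 of all 18834 probe sets tested (0%). At an unadjusted p under 0.05 the count was also 0 of 9, against 4.05% of all probe sets. The median difference of the 9 genes was 0.022 on the log2 scale, against -0.015 over all probe sets, and 7 of the 9 lay above 0. The adjusted p of each of the 9 genes was 0.9997.

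*Igf2*, the growth factor gene, was close to constant. Its log2 signal ran from 13.07 to 13.19 in WT pools (median 13.13, n = 8) and from 13.07 to 13.19 in *Rsk2-/Y* pools (median 13.11, n = 8). The 2 ranges coincided almost completely. The difference was -0.0081 (SE 0.036, 95% confidence interval -0.083 to 0.067), which leaves out a change of 1.2-fold in either direction. Its SD over all 16 pools, 0.037, was smaller than that of all but 1.49% of the 67 probe sets within 0.5 log2 of its level, and smaller than that of all but 0.021% of all tested. The signal lies near the top of the scale, whose highest value was 13.97.

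*Igf2r*, which encodes the receptor that clears IGF2 from the cell surface, had log2 signals of 10.47 to 10.60 in WT pools (median 10.51) and of 10.33 to 10.74 in *Rsk2-/Y* pools (median 10.53). All WT values lay inside the range of the *Rsk2-/Y* values, whose lowest and highest pools were both of the AZN series. The difference was 0.014 (SE 0.053). *Grb10*, the adaptor that damps signalling by the insulin and IGF receptors, ran from 11.82 to 11.97 in WT pools (median 11.94) and from 11.89 to 12.08 in *Rsk2-/Y* pools (median 11.98). The upper *Rsk2-/Y* pools stood above all WT pools while the lower ones lay among them. Its difference of 0.060 (SE 0.040, 95% confidence interval -0.024 to 0.14) had the smallest p of the 9 genes.

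*Cdkn1c* encodes p57, an inhibitor of cyclin-dependent kinases that marks cells leaving the cycle. It ran from 10.75 to 11.26 in WT pools (median 11.07) and from 10.95 to 11.53 in *Rsk2-/Y* pools (median 11.00). Only AZN_MolairesMutant3, the pool richest in muscle transcripts, stood above the WT range. The WT pools ABH_11A (10.83) and ABH_25A (10.75) lay below the *Rsk2-/Y* range, and the other values overlapped. The difference was 0.051 (SE 0.088). *Plagl1* ran from 11.48 to 11.76 in WT pools (median 11.60) and from 11.44 to 11.77 in *Rsk2-/Y* pools (median 11.63), with ranges that nearly coincided and a difference of -0.011 (SE 0.055).

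*Mest*, an enzyme-like gene of mesodermal tissue, had 12.29 to 12.54 in WT pools (median 12.45) and 12.32 to 12.58 in *Rsk2-/Y* pools (median 12.47), and differed by 0.022 (SE 0.052). *Peg3*, a zinc finger gene, had 11.77 to 12.01 in WT (median 11.86) and 11.82 to 11.91 in *Rsk2-/Y* pools (median 11.87), and differed by 0.011 (SE 0.041). For *Mest* the groups overlapped over nearly their whole length, and for *Peg3* every *Rsk2-/Y* value lay within the WT range.

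*Dlk1* and *Meg3* varied most between pools. *Dlk1*, which encodes a transmembrane relative of the Notch ligands, ran from 11.74 to 12.16 in WT pools (median 11.88) and from 11.59 to 12.37 in *Rsk2-/Y* pools (median 11.89), a difference of 0.056 (SE 0.10, 95% confidence interval -0.16 to 0.27). The noncoding RNA *Meg3* ran from 10.61 to 11.82 in WT pools (median 11.10) and from 10.68 to 11.77 in *Rsk2-/Y* pools (median 11.19), a difference of 0.10 (SE 0.19, 95% confidence interval -0.29 to 0.50). For both genes high and low pools were found in either genotype. The intervals of *Dlk1* and *Meg3* included a change of 1.2-fold, unlike those of the other 7 genes. The highest and the lowest pool of *Meg3* stood 2.31-fold apart, against 1.082-fold for *Igf2*.

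**Figure D1:**
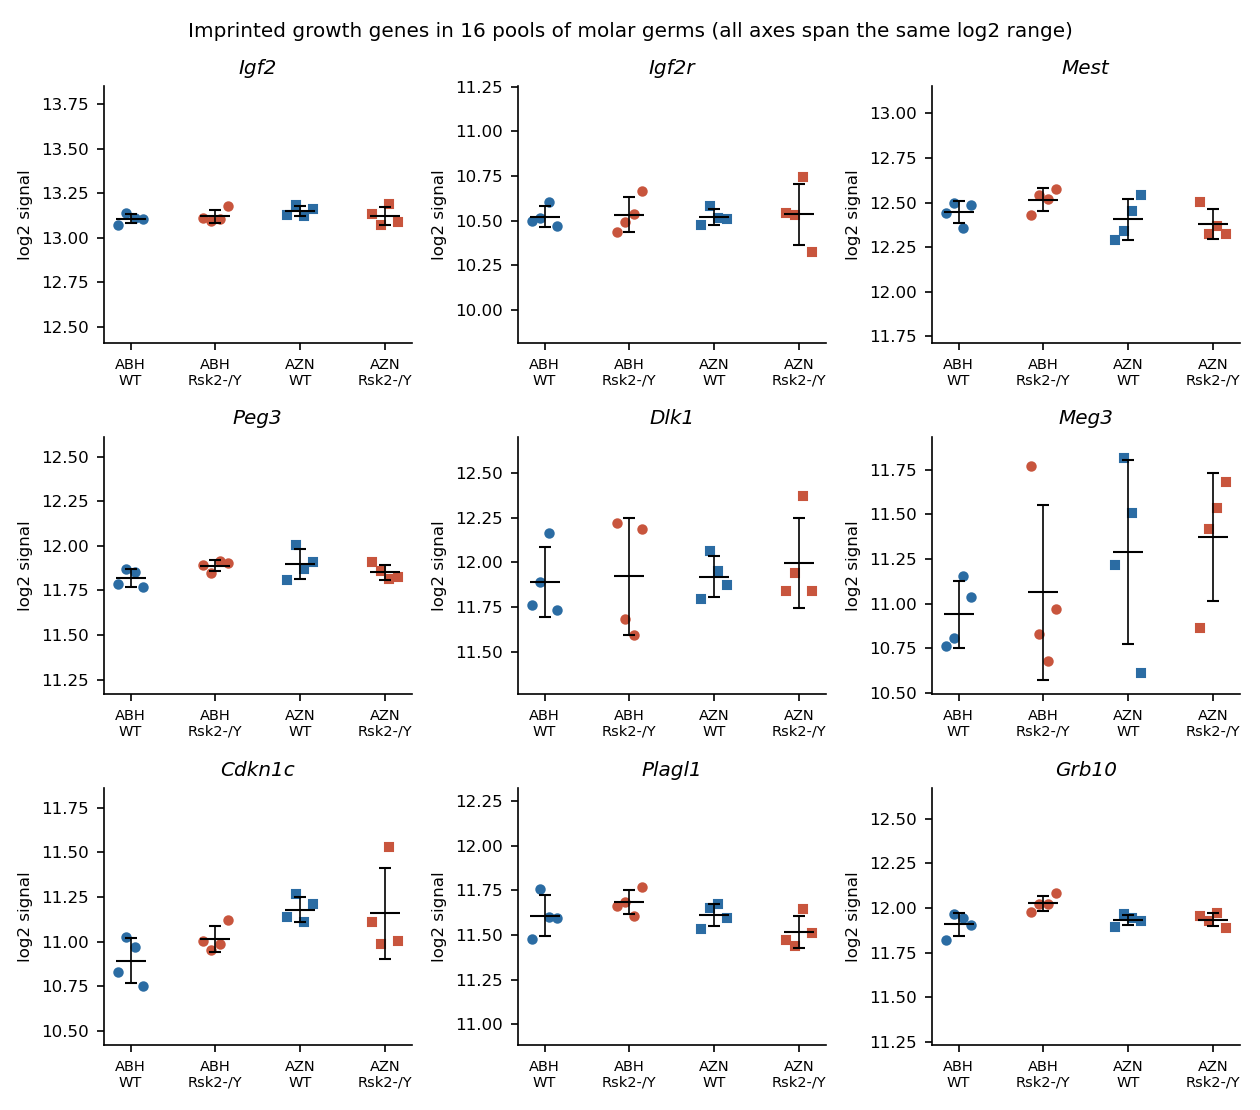
Log2 signal (vertical axis, each spanning the same range) of the 9 genes in the 4 combinations of series and genotype; points are pools (n = 4 each), circles ABH and squares AZN, and black marks give the mean and SD. *Igf2* stays between 13.07 and 13.19 in all pools, whereas *Meg3* runs from 10.61 to 11.82 within both genotypes.

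Within the ABH series 0 of the 9 genes had an unadjusted p under 0.05 between genotypes, against 13% of all probe sets, and within AZN 0 of 9, against 2.89%. *Grb10* came nearest in ABH, with a difference of 0.12 (SE 0.053, unadjusted p from limma 0.0515, adjusted p 0.388). The 4 WT pools of ABH had 11.82, 11.97, 11.95 and 11.90 and the 4 *Rsk2-/Y* pools 11.98, 12.02, 12.02 and 12.08. These values did not overlap, which held for 1 of the 9 genes and for 8.59% of all probe sets. The dental epithelium mean did not overlap in these pools either, with 10.29 to 10.49 in WT and 10.02 to 10.17 in *Rsk2-/Y*, and its part in the values of *Grb10* was not tested. In AZN the values did not overlap for 0 of 9 genes, against 1.57% of all probe sets, and the difference of *Grb10* was 0.0031 (SE 0.061).

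The genotype difference was lower in AZN than in ABH for 7 of the 9 genes, with a median interaction of -0.096 against 0.029 over all probe sets. None of these interactions passed the threshold: 0 of 9 genes and 0% of all probe sets were called, and at an unadjusted p under 0.05 the counts were 0 of 9 and 6.31%. The widest was that of *Plagl1*, which was 0.074 higher in *Rsk2-/Y* pools of ABH and 0.096 lower in those of AZN, an interaction of -0.17 (SE 0.094, adjusted p from limma 0.795).

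**Figure D2:**
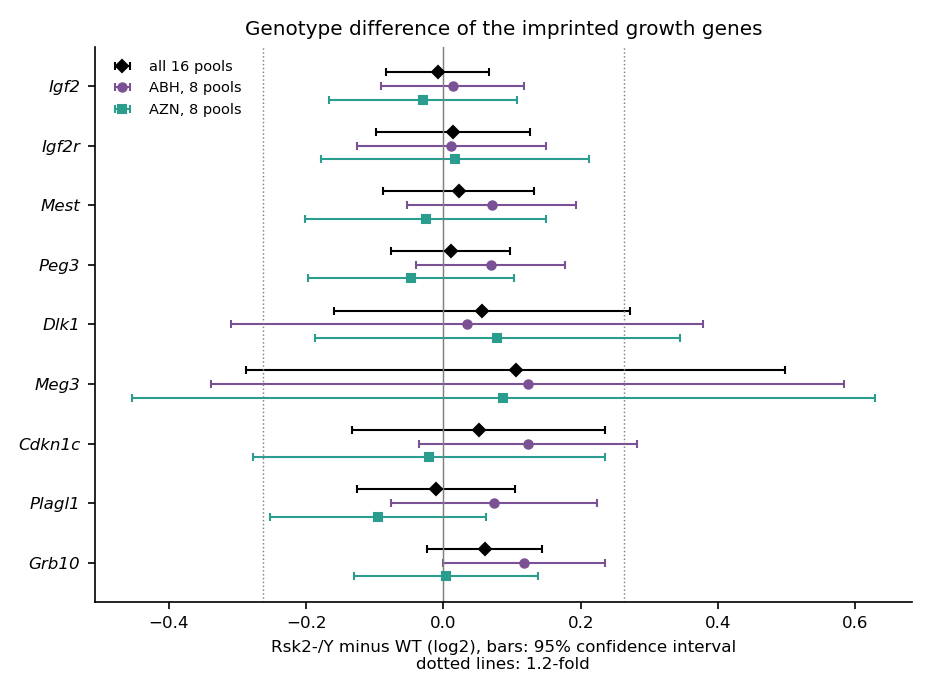
Difference in log2 signal between *Rsk2-/Y* and WT pools for each of the 9 genes, in all 16 pools (diamonds), in ABH (circles) and in AZN (squares), with 95% confidence intervals from limma; dotted lines mark a 1.2-fold change. Every interval over all 16 pools includes 0, and that of *Meg3* is the widest, from -0.29 to 0.50.

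Between the series of the sample names many probe sets of the array differed. With genotype as a covariate, 0 of the 9 genes were called between AZN and ABH, against 16.5% of all probe sets, and 1 of 9 had an unadjusted p under 0.05, against 45.9%. That gene was *Cdkn1c*. Its level was 10.95 ± 0.12 in ABH and 11.17 ± 0.17 in AZN (SD, n = 8 each), a difference of 0.21 (SE 0.071, adjusted p from limma 0.0252) that fell short of 1.2-fold.

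In WT pools *Cdkn1c* had 10.83, 11.02, 10.97 and 10.75 in ABH and 11.14, 11.26, 11.11 and 11.21 in AZN. These values did not overlap, as for 1 of the 9 genes and 21.7% of all probe sets. With the muscle and epithelium means as covariates the difference over all pools was 0.11 (adjusted p from limma 0.335). With WT pools alone it was 0.29 (adjusted p from limma 0.0287), and *Cdkn1c* was then called. It was 1 of 9 genes called in that fit, against 2638 of all 18834 probe sets. In *Rsk2-/Y* pools the values overlapped, at 11.00, 10.95, 10.99 and 11.12 in ABH and 11.11, 10.99, 11.53 and 11.00 in AZN.

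*Meg3* was higher in AZN by 0.33 (SE 0.17, adjusted p 0.142 from limma). Its ABH pools had 10.76, 10.81, 11.16 and 11.04 in WT and 11.77, 10.83, 10.68 and 10.97 in *Rsk2-/Y*. The AZN pools had 11.22, 11.82, 11.51 and 10.61 in WT and 10.86, 11.42, 11.54 and 11.68 in *Rsk2-/Y*. In ABH a single *Rsk2-/Y* pool, ABH_14A, was high, and in AZN the low pools were AZN_MolairesWT and AZN_MolairesMutant, the samples whose names carry no number. Leaving ABH_14A out gave 0.44 (adjusted p from limma 0.0308), and leaving out the unnumbered AZN pools gave 0.53 (adjusted p from limma 0.0088), so that *Meg3* was called in both cases. Of all 18834 probe sets, 3374 and 3651 were called in these 2 fits. These pools are singled out here by their *Meg3* values. Leaving them out had to widen the difference, so these calls give it no support. With the muscle and epithelium means as covariates the difference of *Meg3* was 0.022.

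Co-variation was examined within each series, since the series form separate groups of arrays. The 36 pairs of the 9 genes gave 72 correlations over 8 pools each, tested by exact permutation over all pairings, two-sided, and adjusted together. Pearson r was above 0 for 33 of 36 pairs in ABH (median 0.46) and for 32 of 36 in AZN (median 0.38). After adjustment 2 of the 72 passed 0.05, both in AZN: *Igf2* with *Cdkn1c* and *Igf2r* with *Grb10*. Pairs of other genes were not tested in this way. Whether these counts are particular to imprinted growth genes can therefore not be told.

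*Igf2* and *Cdkn1c* rose and fell together in AZN with r = 0.89 (exact permutation p = 0.000843, adjusted 0.0304) and Spearman rho = 0.98 (exact permutation p = 0.000397, adjusted 0.0286). Without the 2 pools farthest from the median of *Igf2*, r was 0.99. In ABH the pair had r = 0.73 (adjusted p 0.196 by exact permutation) and rho = 0.76, and r = 0.37 without the 2 farthest pools. All of this took place within the narrow range of *Igf2*, 0.11 on the log2 scale in AZN and 0.10 in ABH.

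The receptor *Igf2r* and the adaptor *Grb10*, both brakes on IGF signalling, had r = 0.87 in AZN (exact permutation p = 0.000347, adjusted 0.025) and rho = 0.93 (adjusted 0.0804). Without the 2 farthest pools r was 0.90. In ABH their r was 0.49 (adjusted p 0.467 by exact permutation). Without the 2 AZN pools that carry no number, *Igf2* and *Cdkn1c* had r = 0.90 and *Igf2r* and *Grb10* 0.88 in AZN (adjusted p 0.125 each by exact permutation). With 6 pools the smallest p that permutations can give is 0.00139, and a lone pair could then not pass among 72. With the skeletal muscle mean regressed out, the values in AZN were 0.92 and 0.81 (adjusted p 0.113 and 0.143 by exact permutation), so that neither pair passed although r stayed high.

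**Figure D3:**
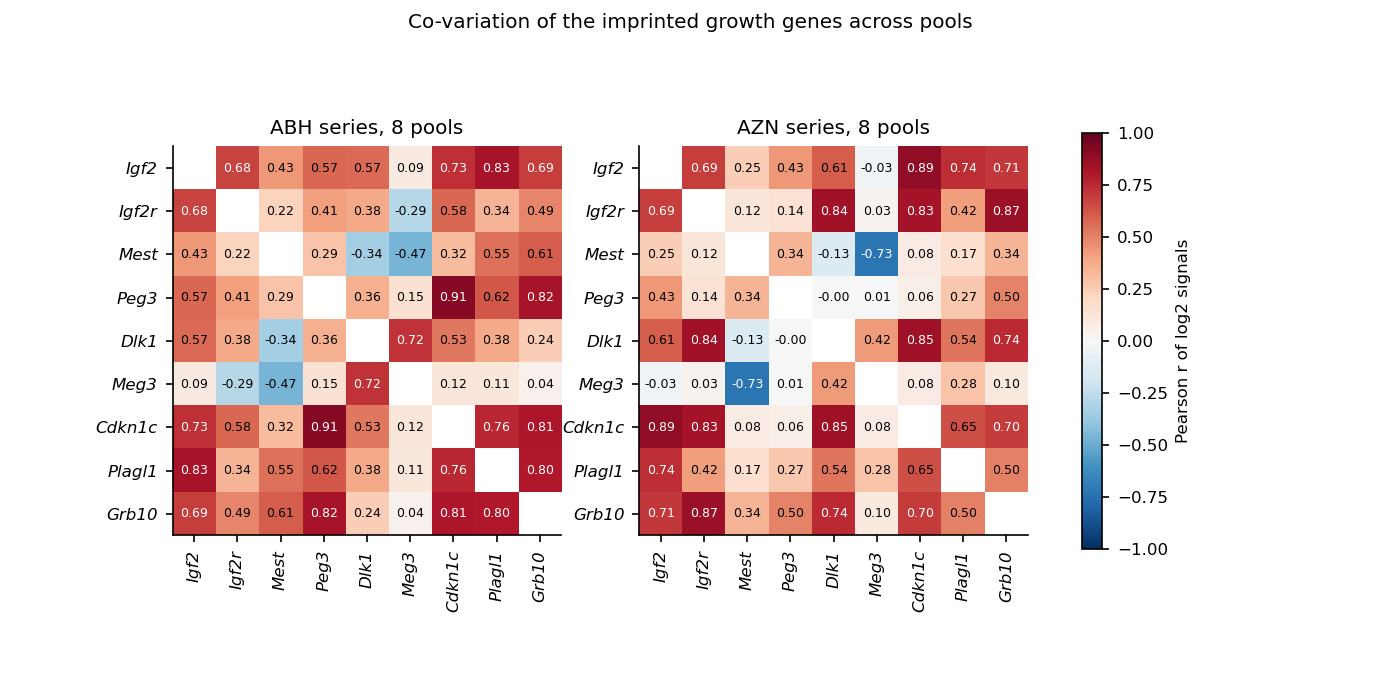
Pearson r of the log2 signals for each pair of the 9 genes across the 8 pools of ABH (left) and of AZN (right). Most cells are above 0, *Igf2* has r of 0.68 or more with *Igf2r*, *Cdkn1c*, *Plagl1* and *Grb10* in both series, and *Meg3* stands apart, with r between -0.73 and 0.28 for every gene but *Dlk1*.

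Pairs that were high in both series centred on *Igf2*. *Igf2* and *Plagl1* had r = 0.83 in ABH and 0.74 in AZN, *Igf2* and *Grb10* 0.69 and 0.71, and *Igf2* and *Igf2r* 0.68 and 0.69. *Cdkn1c* and *Grb10* had 0.81 and 0.70. None of these values passed adjustment (adjusted p 0.137 to 0.235 by exact permutation, rho 0.33 to 0.79). Without the 2 farthest pools their r ran from -0.31, for *Igf2* and *Grb10* in ABH, to 0.64, so several rest on those pools. *Cdkn1c* and *Peg3* differed between the series, at 0.91 in ABH (adjusted p 0.0643 by exact permutation) and 0.060 in AZN, and this difference was not tested.

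Ranked among all genes on the array, *Igf2*, *Cdkn1c*, *Plagl1* and *Grb10* held several high places on each other's lists, and *Igf2r* did so with *Igf2*. For each member the 17214 other genes were ordered by the lower of their r in ABH and in AZN, as a description with no test. *Igf2* was the 3rd gene on the list of *Plagl1*, and *Plagl1* was the 9th on that of *Igf2*. On the list of *Igf2* came *Cdkn1c* at place 13, *Grb10* at 24 and *Igf2r* at 31, and on that of *Grb10* came *Cdkn1c* at 13 and *Igf2* at 16. *Igf2* held place 10 on the list of *Cdkn1c* and 25 on that of *Igf2r*. Other places lay between: *Igf2r* was at 104 on the list of *Cdkn1c*, 148 on that of *Grb10* and 378 on that of *Plagl1*. *Plagl1* was at 131 and *Peg3* at 137 on the list of *Grb10*, and *Dlk1* was at 100 on that of *Igf2* and 159 on that of *Cdkn1c*. Far lower, *Mest* was at 1321 and *Meg3* at 5126 on the list of *Igf2*, *Cdkn1c* was at 2782 on that of *Peg3*, and *Meg3* was at 16112 on that of *Mest*.

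These places depended on the scale. With the array median regressed out within series, *Igf2* was at place 7 for *Plagl1* and 31 for *Cdkn1c*. With the median of each array subtracted instead, it was at place 8 for *Plagl1* and 93 for *Cdkn1c*, but *Plagl1* fell to place 813 and *Cdkn1c* to place 2602 on the list of *Igf2*. Array medians ran from 6.74 to 6.94, a wider range than that of *Igf2* itself, and *Igf2* had r of -0.19 and -0.22 with them in ABH and AZN.

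**Figure D4:**
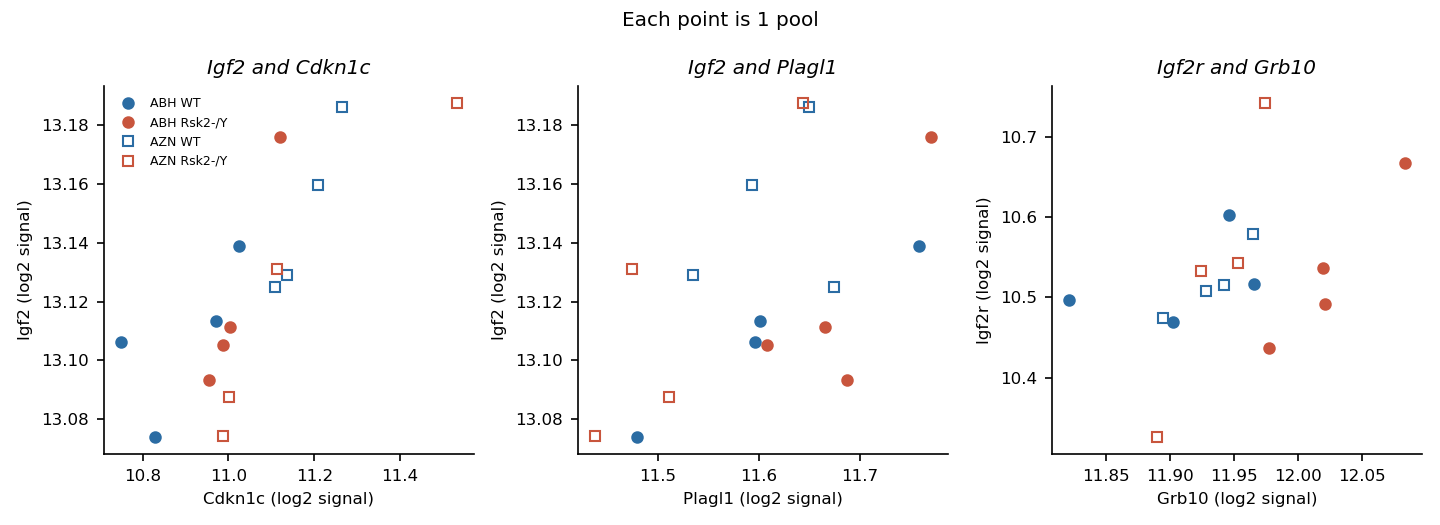
Log2 signals of *Igf2* against *Cdkn1c* and *Plagl1*, and of *Igf2r* against *Grb10*; each point is a pool, filled circles ABH, open squares AZN, blue WT and red *Rsk2-/Y*. *Igf2* and *Cdkn1c* follow each other in AZN (r = 0.89) with both genotypes along the trend, and the vertical axis of *Igf2* covers little more than 0.1.

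The genes most like each member by the same measure were as follows. *Amot*, which encodes an inhibitor of YAP signalling, led the list of *Igf2* (0.85 in ABH and 0.95 in AZN), before the melanocortin receptor gene *Mc4r* and *Igdcc4*. *Amot* was also second for *Cdkn1c*, after the cadherin gene *Cdh2* (0.82 and 0.83) and before *Capn6*. For *Plagl1* they were 4921507P07Rik, *Mc4r* and *Igf2*. For *Grb10* they were the fibronectin gene *Fn1* (0.78 and 0.77), *Adam23* and *Zfp389*.

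*Igf2r* was followed most closely by *Gdap1*, the collagen cross-linking enzyme gene *Lox* and *Crispld1*, and *Peg3* by *Surf6*, *Sorcs3* and *Hoxaas2*. *Mest* was most like *Car5b* (0.93 and 0.92), *Lima1* and the microtubule protein gene *Map4*. *Dlk1* was most like *Meox2* (0.92 in both series), a homeobox gene of muscle and mesenchyme, *Nrk* and *Nav3*. For *Meg3* 2 of the 3 were genes of its own locus, *Mir341* (0.95 in ABH and 0.97 in AZN) and *Mir679* (0.94 and 0.97), and *Akap8l* stood between them.

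*Mir341* and *Mir679* encode microRNAs of the cluster that follows *Meg3*. Their mature forms, from RefSeq on build GRCm38.p6, are shown because these probe sets tracked *Meg3* most closely; capitals mark the seed, bases 2 to 8, with which a microRNA finds its targets. The probe sets do not say which arm, or whether precursor or mature RNA, was measured.
mmu-miR-341-5p, chr12:109611521-109611541, strand +: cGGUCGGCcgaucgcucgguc
mmu-miR-341-3p, chr12:109611556-109611576, strand +: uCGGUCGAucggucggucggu
mmu-miR-679-5p, chr12:109715587-109715608, strand +: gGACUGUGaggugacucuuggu
mmu-miR-679-3p, chr12:109715624-109715645, strand +: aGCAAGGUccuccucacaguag
No seed was shared among these 4.

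The 2 microRNA genes were picked for their likeness to *Meg3*, so their values are a description. *Mir341* had 10.06 and *Mir679* 8.88 in ABH_14A, where *Meg3* was 11.77, and their other *Rsk2-/Y* values in ABH did not pass 8.86 and 7.85. In AZN_MolairesWT, the lowest pool of *Meg3*, they had 8.66 and 7.01. Not every extreme was shared: the lowest ABH pool was ABH_16A for *Meg3* (10.68), ABH_12A for *Mir341* (8.59) and ABH_11A for *Mir679* (7.69). Between genotypes *Mir341* differed by 0.11 (SE 0.24) and *Mir679* by 0.11 (SE 0.19).

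Over the stretch from *Dlk1* to *Dio3*, chosen after *Mir341* and *Mir679* had been seen and therefore not tested, 36 further genes were measured, 30 of them microRNA genes. *Meg3* had r above 0 with 34 of them in ABH and 35 in AZN. The median r was 0.82 in ABH and 0.84 in AZN, against -0.11 and -0.20 over all 17214 genes. An r above 0.8 was reached by 21 of 36 in ABH and 21 of 36 in AZN, against 2.46% and 2.73% of all genes. Some of the microRNA probe sets reached below the minimum signal of 5, *Mir379* down to 3.58 and *Mir496a* down to 4.27. Others lay well above it, such as *Mir341* at 8.59 or more. No comparison was made with microRNA probe sets of other loci at such levels. *Dio3*, the deiodinase gene at the far end, stood out of the pattern with -0.37 and -0.0030, as did *Mir666* with -0.070 and 0.091. The levels of these 36 genes did not all follow *Meg3*, which differed by 0.33 between series. Of the 36, 2 were called higher in AZN and 7 lower, against 16.5% of all probe sets called. Among the lower ones were *Mir382* (-1.27, SE 0.22), *Mir377* (-1.14, SE 0.23) and *Mir323* (-0.96, SE 0.22). Between genotypes 0 of the 36 were called, as were 0% of all probe sets.

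*Meg3* also followed the median of the whole array, with r = 0.93 in ABH and 0.94 in AZN over 8 pools each. This held for no other member to that degree: *Mest* had -0.53 and -0.78, *Dlk1* 0.47 and 0.24, and *Cdkn1c* 0.011 and -0.14. With the array median regressed out, the median r of *Meg3* with the 36 genes was 0.43 in ABH and 0.45 in AZN, against -0.025 and -0.0033 over all genes, and r above 0.8 was left for 2 and 3 of 36. With ABH_14A left out, the median was 0.58 in ABH. Without the unnumbered pools it was 0.71 in AZN. RMA includes a step that equalises arrays, and what moves the array medians was not tested.

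**Figure D5:**
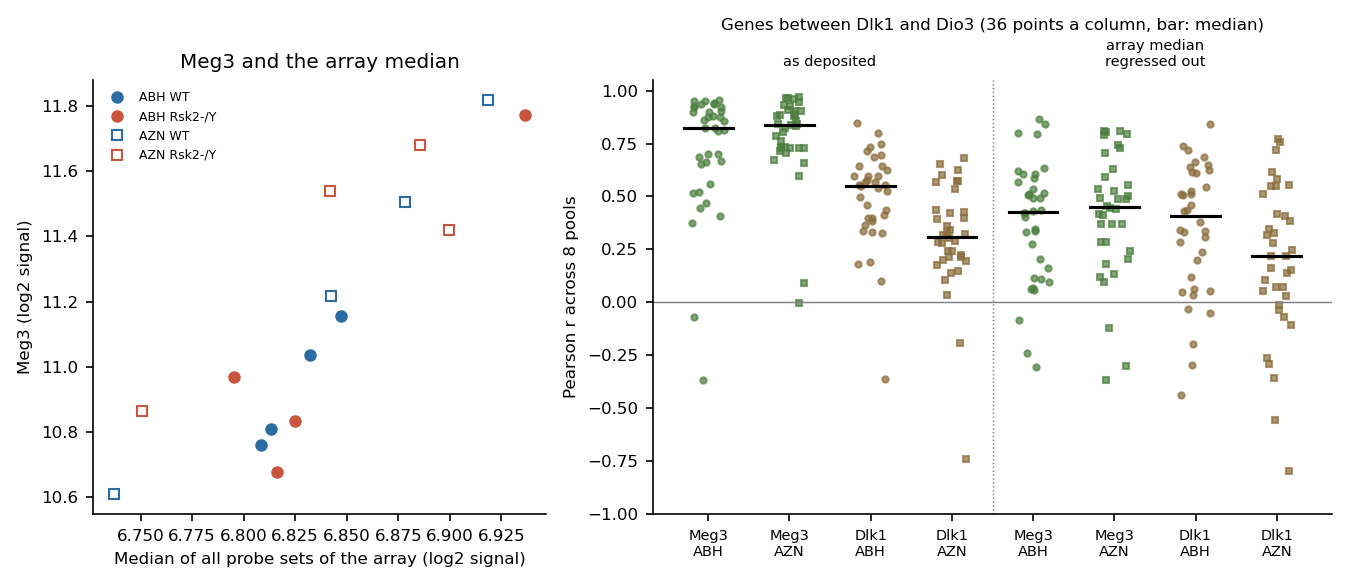
Left, log2 signal of *Meg3* against the median of all probe sets of the array, a point per pool (filled circles ABH, open squares AZN, blue WT, red *Rsk2-/Y*); right, Pearson r of *Meg3* and *Dlk1* with the 36 genes between *Dlk1* and *Dio3*, as deposited and with the array median regressed out, bars giving medians. *Meg3* rises with the array median, and its median r with the cluster goes from 0.82 (ABH) and 0.84 (AZN) to 0.43 and 0.45.

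Of the 5 neighbours listed at this locus, 4 had a probe set, and these were tested with *Dlk1* and *Meg3* in a family of 20 correlations that also holds *Mest* with *Mir335* and *Igf2* with *Mir483*. 1 of the 20 passed an adjusted p of 0.05. This was *Meg3* with *Rian*, the noncoding RNA that follows it, in AZN (r = 0.93, exact permutation p = 0.00193, adjusted 0.0387; rho = 0.76, exact permutation p = 0.0368, adjusted 0.245), with r = 0.61 when the 2 farthest pools were left out. In ABH the pair had r = 0.90 (exact permutation p = 0.0128, adjusted 0.128), and 0.22 without the 2 farthest pools, among them ABH_14A.

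*Dlk1* followed the paternally expressed *Rtl1*, a gene derived from a retrotransposon, with r = 0.72 in ABH and 0.68 in AZN (adjusted p 0.147 and 0.164 by exact permutation). *Dlk1* and *Meg3*, expressed from opposite parental alleles, had r = 0.72 in ABH and 0.42 in AZN (adjusted p 0.137 and 0.569 by exact permutation over the 72 pairs). With the 36 genes of the stretch, *Dlk1* had a median r of 0.55 in ABH and 0.31 in AZN.

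The microRNA genes inside *Mest* and *Igf2* did not rise with their hosts. *Mir335* had r = -0.66 with *Mest* in ABH and -0.56 in AZN (adjusted p 0.191 and 0.278 by exact permutation), and *Mir483* had -0.49 and 0.040 with *Igf2* (adjusted p 0.387 and 0.969). The probe set of *Mir335* lay near the minimum signal, between 4.97 and 5.80. Between genotypes *Mir335* differed by -0.078 (SE 0.10) and *Mir483* by -0.050 (SE 0.078).

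*Meg3* and *Mest* had r = -0.47 in ABH and -0.73 in AZN, and neither passed adjustment (adjusted p 0.516 and 0.196 by exact permutation). With the array median regressed out, r was 0.067 in ABH and 0.019 in AZN. With the median of each array subtracted instead, r was -0.71 in ABH and -0.84 in AZN. With the skeletal muscle mean regressed out it was -0.74 and -0.70, and none of these values passed adjustment. In AZN the value of -0.73 rested on the pools AZN_MolairesWT and AZN_MolairesMutant. These held the 2 lowest values of *Meg3* (10.61 and 10.86) and the 2 highest of *Mest* (12.54 and 12.51). Without the 2 pools farthest from the median of *Mest* in AZN, r was 0.22.

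Members were also set against the means of 10 marker lists in both series, and none of these 180 correlations passed adjustment. *Meg3* had r = 0.83 with the skeletal muscle mean in ABH (exact permutation p = 0.0256, adjusted 0.453; rho = 0.52, p = 0.197, adjusted 0.681) and 0.30 without the 2 pools farthest from the median of muscle. With the dental mesenchyme mean it had r = -0.94 in ABH (exact permutation p = 0.000942, adjusted 0.17; rho = -0.81, p = 0.0218, adjusted 0.503) and -0.74 without the 2 farthest pools, whereas in AZN it was -0.46. *Dlk1* had r = 0.84 with muscle in AZN (exact permutation p = 0.0187, adjusted 0.453; rho = 0.62, p = 0.106, adjusted 0.636) and 0.27 without the 2 farthest pools. *Grb10* had r = -0.75 with the dental epithelium mean in ABH and -0.62 in AZN.

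Among genes around the members, those near *Igf2*, *H19* and *Cdkn1c* held 1 of 10 with an unadjusted p under 0.05 between genotypes, against 4.05% of all probe sets. This was the transporter gene *Slc22a18*, 0.22 lower in *Rsk2-/Y* pools (SE 0.055, adjusted p from limma 0.638). Between series 2 of the 10 were called: *Tssc4* was 0.46 higher in AZN (SE 0.052, adjusted p from limma 6.08e-06) and the tetraspanin gene *Cd81* was 0.32 lower (SE 0.055, adjusted p 0.000281). Of the 4 listed neighbours measured at the *Dlk1* and *Meg3* locus 0 were called in either comparison, and *Rian* differed by 0.22 (SE 0.27) and *Dio3* by -0.18 (SE 0.12) between genotypes.

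Of 9 neighbours of *Mest*, *Peg3*, *Igf2r*, *Plagl1* and *Grb10*, 0 were called between genotypes and 1 between series, the splicing factor gene *Sf3b5* beside *Plagl1*, 0.28 lower in AZN (SE 0.053, adjusted p from limma 0.000515). Among 23 other imprinted genes 0 were called between genotypes and 2 between series. *Nnat*, a membrane proteolipid gene of developing tissue, was 0.49 higher in AZN (SE 0.078, adjusted p from limma 0.000132), and *Sgce* was 0.34 lower (SE 0.049, adjusted p 5.04e-05).

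Of the other IGF2 receptors and the IGF2 mRNA-binding proteins 0 of 4 were called in either comparison, and *Insr*, the insulin receptor gene, differed by 0.065 (SE 0.076) between genotypes and *Igf2bp3* by -0.030 (SE 0.053). Of 9 genes that maintain imprints 0 were called between genotypes and 1 between series. This was *Zfp57*, whose product protects imprints from demethylation, 0.38 lower in AZN (SE 0.062, adjusted p from limma 0.000154). Counts of 1 or 2 in such lists stand against the 16.5% of all probe sets called between series.

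Promoter sequence was available from RefSeq (GRCm38.p6) for 8 of the 9 genes in 15 windows, of which the 250 bases before the start were searched. The motif GGGGCCCC, a site known for the PLAGL1 protein and the same on both strands, was in 1 of the 15 windows, that of *Peg3*, and in 0.889% of all 32851 windows. TATAAA, on either strand, was in 1 of the 15, that of a *Meg3* start, and in 12.4% of all. The window of *Igf2r* held neither motif but 27 CG pairs, against a median of 6 over all windows. The 2 windows of *Grb10*, its partner in AZN, held 40 and 8, and the one with 40 is shown. Counts above that median were not particular to this pair: the window of *Plagl1* held 19, those of *Mest* from 7 to 14 and those of *Igf2* from 1 to 22. The 4 windows are given with these letters in capitals, since a reader can set them beside the co-variation; a match is a description and not a binding site.
Peg3 window, chr7:6730420-6730669, strand -: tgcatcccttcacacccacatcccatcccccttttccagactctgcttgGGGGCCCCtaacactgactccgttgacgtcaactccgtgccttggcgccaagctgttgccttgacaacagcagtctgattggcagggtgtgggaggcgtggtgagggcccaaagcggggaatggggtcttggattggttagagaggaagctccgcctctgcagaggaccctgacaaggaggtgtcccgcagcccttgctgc
Meg3 window, chr12:109540746-109540995, strand +: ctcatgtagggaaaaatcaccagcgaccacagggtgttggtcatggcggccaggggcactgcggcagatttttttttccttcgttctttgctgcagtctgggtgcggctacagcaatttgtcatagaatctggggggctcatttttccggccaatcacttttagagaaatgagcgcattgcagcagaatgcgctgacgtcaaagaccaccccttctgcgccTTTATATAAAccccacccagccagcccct
Igf2r window, chr17:12769707-12769956, strand -: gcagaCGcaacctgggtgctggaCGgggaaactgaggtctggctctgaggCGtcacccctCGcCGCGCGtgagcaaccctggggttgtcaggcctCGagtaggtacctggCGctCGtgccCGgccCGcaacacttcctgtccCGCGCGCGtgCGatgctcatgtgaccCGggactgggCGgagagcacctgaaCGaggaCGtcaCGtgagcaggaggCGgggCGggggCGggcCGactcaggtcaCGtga
Grb10 window, chr11:12037421-12037670, strand -: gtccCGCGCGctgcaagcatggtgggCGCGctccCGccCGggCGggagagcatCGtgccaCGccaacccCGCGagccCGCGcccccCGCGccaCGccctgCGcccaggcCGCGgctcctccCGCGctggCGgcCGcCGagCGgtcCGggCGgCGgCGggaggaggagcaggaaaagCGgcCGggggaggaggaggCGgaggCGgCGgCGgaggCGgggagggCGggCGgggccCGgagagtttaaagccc
In the *Peg3* window capitals mark GGGGCCCC, in that of *Meg3* TATAAA on both strands, which overlap, and in those of *Igf2r* and *Grb10* CG pairs. None of the 4 *Igf2* windows held GGGGCCCC.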

How the data were processed

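The deposited values are log2 signals per probe set, which the authors computed by RMA in Expression Console 1.3.1.187 (Affymetrix); RMA corrects background, equalises arrays and summarises probes. Nothing was normalized again, and the files name no genome build. Of 35556 probe sets, 18834 carry a single symbol and exceeded 5 in 1 sample or more, and these were tested. Precision is limited by the number of arrays. Samples correlated at 0.976 to 0.997.

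Genotype was tested with limma 3.58.1 in R 4.3.3 without a covariate, series with genotype as a covariate, and their interaction, two-sided, with Benjamini-Hochberg adjustment over all 18834 probe sets, at an adjusted p under 0.1 and 1.2-fold. Correlations were tested within series by exact permutation over all pairings of 8 pools with Python 3.11.15 and NumPy 2.4.6, called at an adjusted p under 0.05. Scripts were tested on simulated data. The members, lists and tests were chosen with earlier results of these data known. Named genes were all members, the 3 most alike genes of each, and, of each list, up to 4 called or else the 2 with the largest genotype difference; *Slc22a18* and the stretch from *Dlk1* to *Dio3* were chosen after values were seen. *H19* left 36 pairs where 45 had been planned for.

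Alternatives were: series or replicate block, each series or genotype alone, muscle and epithelium means as covariates, array weights, other signal minimums, centred arrays, the methods' t-test, the mean of a gene's probe sets, and leaving out pools singly or in named pairs, and for correlations Spearman's rho, genotype means removed, and the muscle mean or the array median regressed out.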

Additional observations from a re-analysis of the deposited data

Results flagged for a closer look

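*Cdkn1c* in the *Rsk2-/Y* pool AZN_MolairesMutant3, at a log2 signal of 11.53, lay farther from the other 7 *Rsk2-/Y* pools than Dixon's 95% limit allows. The gap to the next pool took 0.714 of the range of the group. The same pool had the highest skeletal muscle mean, 9.74, and the highest *Dlk1*, 12.37. Among the 30 groups examined this was the only 1 past the limit, and chance gives about 1 in 20. Each group mixed ABH and AZN pools, which the limit does not allow for, and *Cdkn1c* was 0.21 higher in AZN. The part of muscle transcripts in the value of AZN_MolairesMutant3 was not tested. Without this pool and ABH_14A, *Cdkn1c* differed between genotypes by -0.0091.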

How the results depend on the processing

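No alternative gave a called gene among the 9 for genotype or interaction, the methods' t-test and leaving out any 1 pool included. No paired analysis of all pools was possible because only the AZN numbers 1 and 3 occur in both genotypes. Deviations of those pairs correlated at -0.034 and -0.013 across genes, and the replicate block on them gave 0 genes called. The unnumbered pools AZN_MolairesWT and AZN_MolairesMutant correlated at 0.68, the highest of all WT and *Rsk2-/Y* pairs in AZN. What they share was not tested. The AZN pools may therefore not be exchangeable, as the permutation tests take them to be. Between series 1 of the 9 genes was called with WT samples only (*Cdkn1c*), with array weights, without ABH_14A and AZN_MolairesMutant3, and without the unnumbered AZN pools (*Meg3* each time). Of all 18834 probe sets, 2638, 3133, 3067 and 3651 were called in these settings in turn. Leaving out 1 pool gave 0 to 1, *Meg3* without AZN_MolairesWT, AZN_MolairesMutant or ABH_14A, against 3317, 3325 and 3374 of all probe sets. Of gene pairs, 0 passed with the muscle mean regressed out, 0 without the 2 farthest pools and 0 without the unnumbered AZN pools, where 6 pools are too few for a lone pair to pass, 1 by Spearman correlation (*Igf2* with *Cdkn1c*) and 5 with the array median regressed out. With each array centred 2 passed, neither of them among the original 2. Leaving out the unnumbered pools and regressing out the array median were chosen after seeing the data. The 69 of 72 correlations of *Meg3* with its cluster that lay above 0 changed to between 66 and 71 under the alternatives, but their size moved more. Without the 2 pools farthest from the median of *Meg3*, the median r was 0.40 in ABH and 0.71 in AZN. An r above 0.8 was then reached by 2 and 8 of 36. With ABH_14A left out, it was reached by 2 of 36 in ABH. Causes were not tested.

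Differences near 0 changed sign. For genotype these were, in ABH alone, *Igf2* 0.013 and *Plagl1* 0.074; in AZN alone, *Mest* -0.026, *Peg3* -0.047 and *Cdkn1c* -0.021; with series, muscle and epithelium in the fit, *Igf2r* -0.065, *Peg3* -0.022, *Dlk1* -0.15, *Meg3* -0.22 and *Cdkn1c* -0.096; without ABH_14A and AZN_MolairesMutant3, *Igf2r* -0.0043, *Dlk1* -0.056, *Meg3* -0.041 and *Cdkn1c* -0.0091; with array weights, *Plagl1* 0.0056; and without the unnumbered pools, *Plagl1* 0.0042. Leaving out 1 pool gave *Igf2* -0.018 to 7.1e-06, *Igf2r* -0.016 to 0.044, *Peg3* -0.0016 to 0.032, *Dlk1* -0.0025 to 0.11, *Cdkn1c* -0.013 to 0.084 and *Plagl1* -0.035 to 0.012. Between series these were, in WT alone, *Igf2r* -0.0020, *Plagl1* 0.0042 and *Grb10* 0.024; in *Rsk2-/Y* alone, *Igf2* -0.0013 and *Peg3* -0.038; with muscle and epithelium, *Igf2* -0.0059, *Igf2r* -0.055 and *Dlk1* -0.14; and for *Igf2r*, -0.042 with array weights, -0.0095 with centred arrays and -0.043 without ABH_14A and AZN_MolairesMutant3. Leaving out 1 pool gave *Igf2r* -0.031 to 0.033, *Peg3* -0.0018 to 0.029 and *Dlk1* -0.0048 to 0.098.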
